A study of Mus musculus with 18 samples.

Results

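To describe how integrins and memory adhesion molecules are expressed in naive and tolerized CD4+ T cells, the mRNA levels of 10 genes were followed through 18 RNA-seq libraries. The genes were chosen by name and are *Cd44*, *Selplg*, *Itgal*, *Itga4*, *Itga6*, *Itgav*, *Itgb1*, *Itgb2*, *Itgb3* and *Itgb7*. They are 10 of the 37991 genes in the count files, and all 10 passed the filter on low counts that left 17240 genes to test. CD4+ T cells had been enriched magnetically from the spleens of male and female Tg4-H2u mice aged 6 to 12 weeks, which carry a transgenic TCR for a myelin basic protein peptide in every group. Tolerized mice (T) had received 7 subcutaneous doses of the high-affinity 4Y peptide, raised stepwise to a maximum that was then kept. Control mice (N), whose cells were predominantly naive, had received PBS on the same schedule. The N0 and T0 cells were taken 2 h after a final injection of PBS, and the NAg and TAg cells 2 h after a final injection of 80 µg 4Y peptide (Ag). The NPI and TPI cells were cultured for 2 h with 20 ng/ml PMA and 2 µM of the calcium ionophore A23187 (PI), which act downstream of the TCR. No group was cultured without PI, so that PI and culture cannot be told apart in comparisons with N0 and T0. Changes credited to PI below are those of both together. Each group had 3 biological replicates. An enriched population is not a sorted one, so that every library is a mixture, and in such bulk RNA fewer cells that express a gene and less of its RNA per cell cannot be told apart.

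Integrins are adhesion receptors made of 1 α and 1 β chain, and the pairing of chains decides the ligand. LFA-1 (*Itgal* with *Itgb2*) binds ICAMs on antigen-presenting cells and endothelium, α4β1 and α4β7 (*Itga4* with *Itgb1* or *Itgb7*) bind VCAM-1 and the gut addressin MAdCAM-1, α6β1 (*Itga6*) binds laminin, and the αv integrins (*Itgav*) bind RGD proteins such as vitronectin, osteopontin and the latent form of TGF-β. PSGL-1 (*Selplg*) presents sugars to selectins on vessel walls, and CD44 binds hyaluronan. High CD44 and changed integrin levels on the cell surface are used to tell memory and effector T cells from naive ones.

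Total counts ranged from 10758571 to 24119489 per library, and no member had fewer than 201 counts in any library. The summed normalized counts of 8 T cell markers lay between 23852 and 72174 in each library, whereas *Cd8a* and *Cd8b1* together reached at most 259.5 and 6 B cell markers at most 2693. Neutrophil markers differed with the cell state. The sum of 10 of them was 75.4 to 178 in N0 and 1717 to 3066 in T0, 139.8 to 356 in NAg and 2185 to 3912 in TAg, and 69.6 to 180.3 in NPI and 398 to 684 in TPI, without overlap. The 4 regulatory T cell markers *Foxp3*, *Il2ra*, *Ikzf2* and *Nrp1* all passed the test as higher in T0 than N0. Their sum was 1338 to 2938 in N0 and 6677 to 8587 in T0, and 24946 to 29387 in NAg and 31407 to 32899 in TAg. After PI it was 6500.1 to 7782 in NPI and 19400.5 to 23315 in TPI, and no naive group overlapped its tolerized group. All 4 were higher in TPI than NPI and 2 in TAg than NAg. Against rest, 2 of the 4 were higher in NAg than N0 (median log2 fold change 0.849) and 1 in TAg than T0 (0.571). After PI, 1 was higher in NPI than N0 (0.541) and 1 in TPI than T0 (0.438). The rise of the sum after Ag thus does not stand for each of the 4 markers. The sum of 11 macrophage markers was 557 to 796 in N0 and 1346 to 1722 in T0, 578 to 2197 in NAg and 964 to 1414 in TAg, and 296 to 409 in NPI and 577 to 689.7 in TPI. Of the 11, 1 passed as higher in T0 than N0 (median log2 fold change -0.28) and 1 in TPI than NPI (median 0.645), and 0 as lower. In TAg over NAg, 1 was higher and 8 were lower (median -3.29), so that the sums do not stand for each marker. The sum of 8 erythroid markers was 91.9 to 266 in N0 and 278 to 2251 in T0, and 161 to 211 in NPI and 312 to 483 in TPI. It was 214 to 481 in NAg and 187 to 1572 in TAg, which overlapped. Of the 8, 1 passed as higher in T0 than N0, 1 in TAg than NAg and 0 in TPI than NPI. The part of these cells in the differences below was not tested, beyond fits that included marker scores. Reads of Y-linked genes placed all PI libraries, T0 replicates 1 and 2 and TAg replicate 3 with male mice and the other 9 libraries with female mice, so that sex and PI treatment cannot be told apart in naive cells.

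In resting cells, tolerized cells differed from naive cells in 5 of the 10 genes. *Itgb1*, *Itga4*, *Cd44* and *Itgav* were higher in T0 and *Itgb3* was lower, and the other 5 did not pass the test, which was edgeR's quasi-likelihood test with an adjusted p under 0.05 over all tested genes. Of all tested genes, 8.42% were higher and 12% lower in T0 by the same rule. The median log2 fold change of the 10 genes was 0.14, beside -0.08 over all tested genes. After Ag, 6 members were higher in TAg than NAg, led by *Itgav* and *Itgb7*, and *Selplg* was lower. The background was 20.9% higher and 18.5% lower, and the medians were 0.47 for the members and 0.01 for all genes. After PI, *Itgav*, *Cd44*, *Itgb1*, *Itga4* and *Selplg* were higher in TPI than NPI and *Itgb3* was lower, against a background of 18.2% higher and 19.7% lower, with medians of 0.18 and -0.04.

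**Figure D1:**
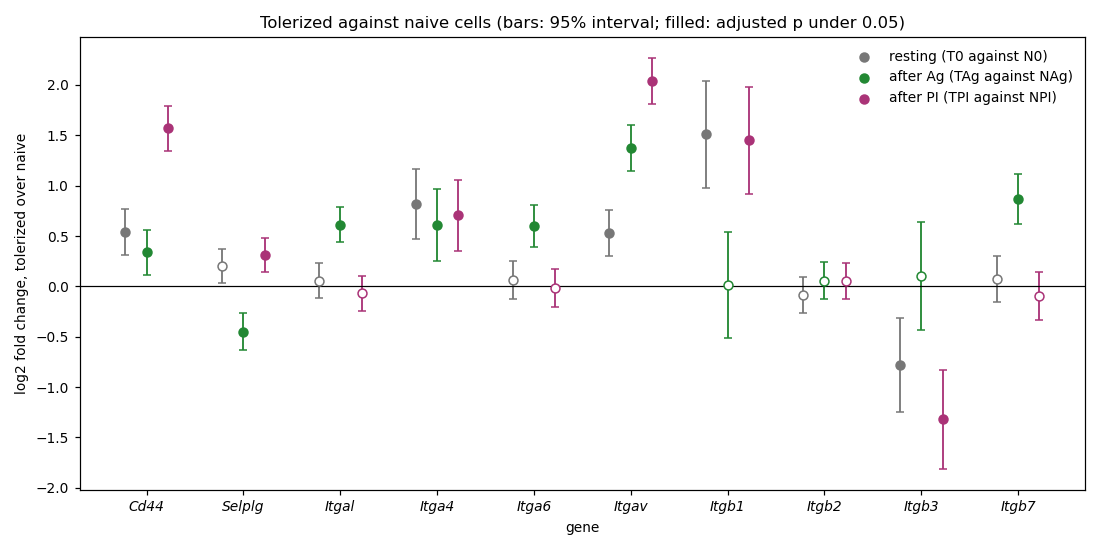
Log2 fold change of tolerized over naive cells (vertical axis) for the 10 genes (horizontal axis) at rest, after Ag and after PI, with 95% intervals from the edgeR fit. Filled points passed the test, *Itgav* lies above 0 in each condition with 0.53, 1.37 and 2.04, and *Itgb3* lies below 0 at rest and after PI.

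When scores of myeloid and erythroid marker genes were added to the model, none of the 10 genes passed the edgeR test between T0 and N0. The estimates were then 1.47 (SE 0.55) for *Itgb1*, 0.23 (SE 0.21) for *Itgav*, 0.20 (SE 0.29) for *Itga4*, -0.01 (SE 0.17) for *Cd44* and -1.44 (SE 0.46) for *Itgb3*, with adjusted p-values from 0.226 for *Itgb3* to 1.0 for *Cd44*. The standard error of *Itgb1* was 0.25 without the scores, which differ between T0 and N0 as the groups do. In the other comparisons the scores left *Itgav* and *Cd44* past the test after PI (1.90 and 1.24 in TPI over NPI) and ended the calls of *Cd44* (0.10) and *Itga4* (0.36) in TAg over NAg and of *Itga4* (0.33) and *Selplg* (0.07) in TPI over NPI. They also left 5 members in place of 8 past the test in NPI over N0, where *Itga4* (-0.15), *Itgb2* (-0.22) and *Itgb3* (-0.86) did not pass, and 3 in TPI over T0, where *Selplg* (-0.37), *Itga4* (-0.02), *Itgb2* (-0.04), *Itgb3* (-1.11) and *Itgb7* (-0.63) did not. All 10 members passed with the scores in TAg over T0, and 9 in NAg over N0, where *Itgb1* did not (0.71, adjusted p = 0.0741). The shares of all tested genes that passed with the scores are not given here. Whether the lost calls are particular to the members cannot be told from these counts.

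Most members fell after Ag. In naive cells all 10 genes passed the test 2 h after Ag, with 7 lower and 3 higher in NAg than N0, where 33.4% of tested genes were lower and 32.1% higher. In tolerized cells all 10 passed too, with 8 lower and 2 higher in TAg than T0, against 29.8% lower and 29.9% higher. The median log2 fold change of the members was -1.27 in naive and -1.48 in tolerized cells, beside 0.00 and -0.05 over all genes. PI gave 6 lower and 2 higher members in NPI than N0, with a background of 32.7% lower and 28.6% higher, and likewise 6 lower and 2 higher in TPI than T0, with 36.3% lower and 32% higher. Their medians were -0.39 and -0.38. The Ag and PI comparisons of a cell state share its resting libraries. In each of these 4 comparisons *Cd44* and *Itgav* were higher and *Selplg*, *Itgal*, *Itga4*, *Itgb2*, *Itgb3* and *Itgb7* were lower. The median absolute log2 change of the members was 1.30 after Ag in naive and 1.98 in tolerized cells, and 0.84 and 0.85 after PI, where it was 0.97, 0.77, 0.76 and 0.92 over all tested genes. Between cell states it was 0.36 at rest, 0.52 after Ag and 0.51 after PI, beside 0.26, 0.42 and 0.40 over all genes.

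**Figure D2:**
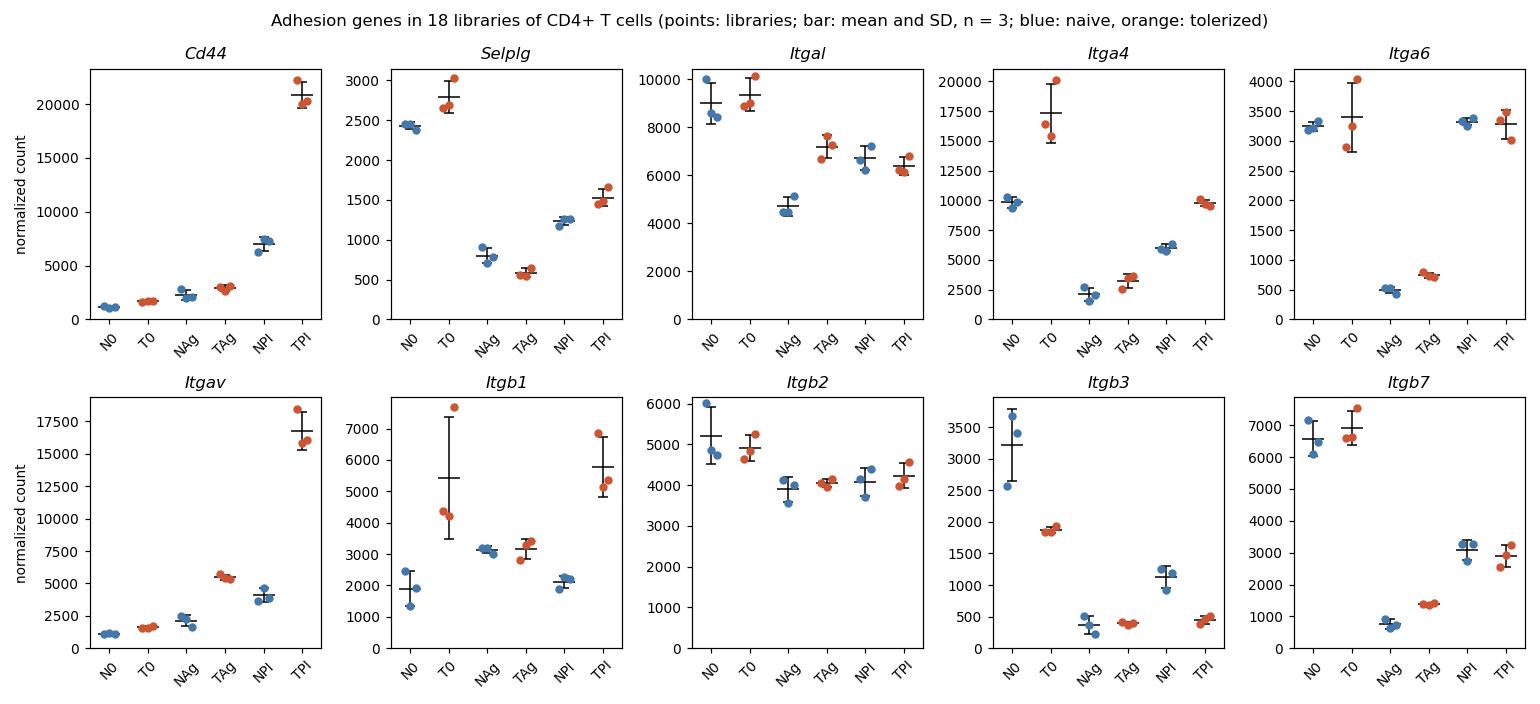
Normalized counts (vertical axes, from 0) of each gene in the 18 libraries, by group (horizontal axes), with the mean and SD of 3 replicates. *Cd44* and *Itgav* are highest in TPI, at 19990 to 22245 and 15863 to 18480, and *Itgb7*, *Itga6* and *Itga4* are lowest after Ag.

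*Cd44*, the hyaluronan receptor used as the marker of antigen-experienced T cells, lies on chromosome 2 (chr2:102651298-102741822, minus strand, NCBIM37). Its normalized counts were 1227, 1055 and 1169 in N0 and 1656, 1681 and 1694 in T0. They were 2836, 2016 and 2029 in NAg and 2973, 2618 and 3102 in TAg. After PI they were 6261, 7508 and 7291 in NPI and 22245, 19990 and 20309 in TPI. The levels rose in the order N0, T0, NAg, TAg, NPI and TPI, and only NAg and TAg overlapped. The log2 fold change was 0.54 (SE 0.11, adjusted p = 0.00135) in T0 over N0 and 1.57 (SE 0.11, adjusted p = 4.02e-10) in TPI over NPI, which is a 2.97-fold difference. In TAg over NAg it was 0.34 (SE 0.11, adjusted p = 0.016), and this call was lost when any of NAg replicates 2 and 3 or TAg replicates 1 and 3 was left out (0.25 to 0.32) and in a fit of those groups alone (0.35, adjusted p = 0.0935). *Cd44* was 6.10-fold higher in NPI than N0 and 12.4-fold higher in TPI than T0. The difference between these responses was 1.03 (SE 0.15, adjusted p = 4.51e-05) on the log2 scale. With Ag the responses were 0.99 in naive and 0.79 in tolerized cells, and their difference of -0.20 had a 95% interval of -0.52 to 0.11.

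*Itgav*, the α chain that pairs with β1, β3, β5, β6 or β8 and with β8 binds latent TGF-β, also lies on chromosome 2 (chr2:83564554-83647073, plus strand). It had 1127, 1139 and 1101 normalized counts in N0 and 1588, 1568 and 1700 in T0. After Ag it had 2464, 2237 and 1667 in NAg and 5708, 5422 and 5328 in TAg. After PI it had 3669, 4683 and 3913 in NPI and 18480, 15863 and 16040 in TPI. The tolerized libraries were above the naive ones under each condition, without overlap, and only T0 and NAg overlapped among neighbours in the order of levels. The difference between cell states was 0.53 (SE 0.11, adjusted p = 0.00197) at rest, 1.37 (SE 0.11, adjusted p = 6.32e-09) after Ag and 2.04 (SE 0.11, adjusted p = 2.48e-11) after PI. The rise after Ag was 1.89-fold in naive and 3.39-fold in tolerized cells, a difference in response of 0.84 (SE 0.16, adjusted p = 0.00046). The rise after PI was 3.64-fold in naive and 10.4-fold in tolerized cells, a difference of 1.51 (SE 0.15, adjusted p = 7.19e-07). The summed markers of neutrophils (69.6 to 180.3 and 398 to 684), macrophages (296 to 409 and 577 to 689.7) and regulatory T cells (6500.1 to 7782 and 19400.5 to 23315) were also higher in TPI than in NPI, and the part of regulatory T cells in this difference was not tested. Exons of *Itgav* share 634 bp with *Gm13684* on the opposite strand, which had at most 14.5 normalized counts.

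*Cd44* and *Itgav* were the 2 members that rose under every stimulus in both cell states, and *Itgb7* was among those that fell most after Ag. The 250 bases upstream of the annotated starts of these genes are shown to place letters of known T cell motifs. RefSeq promoter sequences, found at 1 place each in NCBIM37, were at hand for 5 of the 10 members.
Cd44 promoter, chr2:102741823-102742072, minus strand: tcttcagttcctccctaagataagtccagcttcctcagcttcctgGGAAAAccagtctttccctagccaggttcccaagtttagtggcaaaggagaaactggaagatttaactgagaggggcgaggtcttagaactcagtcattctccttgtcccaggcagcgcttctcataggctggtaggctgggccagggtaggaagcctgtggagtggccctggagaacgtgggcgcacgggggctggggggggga
Itgav promoter, chr2:83564304-83564553, plus strand: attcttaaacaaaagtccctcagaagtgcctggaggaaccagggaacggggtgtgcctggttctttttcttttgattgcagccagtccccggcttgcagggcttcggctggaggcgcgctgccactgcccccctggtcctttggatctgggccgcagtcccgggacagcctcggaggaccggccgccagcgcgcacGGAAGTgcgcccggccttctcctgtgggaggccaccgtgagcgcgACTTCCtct
Itgb7 promoter, chr15:102062367-102062616, minus strand: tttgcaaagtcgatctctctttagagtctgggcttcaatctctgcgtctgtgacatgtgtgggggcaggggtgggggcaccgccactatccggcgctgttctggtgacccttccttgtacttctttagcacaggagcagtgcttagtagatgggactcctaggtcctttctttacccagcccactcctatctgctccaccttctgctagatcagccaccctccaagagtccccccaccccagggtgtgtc
Capitals mark matches to the motifs searched on both strands, which were AP-1 (TGANTCA), NFAT (GGAAAA), NF-kB (GGGANNNNCC), ETS (GGAAGT), RUNX (TGTGGT) and SP/KLF (GGGCGG). *Cd44* held NFAT letters 205 bases before the start, at -205, which 20.4% of 32851 promoter windows of this length hold. *Itgav* held ETS letters at -54 and -9, as 19.7% of windows do at least once. *Itgb7* held none of the 6. Of the other members with a sequence, *Itgb1* held SP/KLF letters (32.7% of windows), and *Itga4* held these and RUNX letters (14% of windows). AP-1 letters (6.75% of windows) and NF-kB letters (17.6% of windows) were in none of the 5 windows. A match describes the letters in the window, and is no evidence of a bound factor.

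*Itgb1*, the most widely paired β chain, gave the largest difference between resting cells. It lies on chromosome 8 (chr8:131209554-131257100, plus strand). Normalized counts were 2470, 1332 and 1906 in N0 and 4374, 4228 and 7674 in T0. They were 3207, 3202 and 3012 in NAg and 2815, 3279 and 3425 in TAg, and after PI 1892, 2255 and 2201 in NPI and 6871, 5129 and 5348 in TPI. The tolerized libraries were above the naive ones at rest and after PI, and overlapped them after Ag. The log2 fold change was 1.51 (SE 0.25, adjusted p = 0.000928) at rest, a 2.85-fold difference, and 1.45 (SE 0.24, adjusted p = 0.00038) after PI. T0 replicate 3, a female library, was the highest of the 3, and without it the difference at rest was 1.17. In a fit of the T0 and N0 libraries alone the difference was 1.57 (SE 0.36) with an adjusted p of 0.0578. After Ag the difference was 0.01, with a 95% interval of -0.51 to 0.54. Ag moved the 2 cell states in opposite directions. *Itgb1* rose by 0.72 (SE 0.24, adjusted p = 0.019) from N0 to NAg and fell by 0.77 (SE 0.24, adjusted p = 0.0135) from T0 to TAg, and the difference in response was -1.50 (SE 0.34, adjusted p = 0.00711). The rise in naive cells was not past the test without N0 replicate 2 or N0 replicate 3, and the fall in tolerized cells was not past it without T0 replicate 3 or TAg replicate 1, where the estimates reached 0.47 and -0.47. PI left *Itgb1* at 0.15 (95% interval -0.38 to 0.68) in naive and 0.09 (-0.42 to 0.61) in tolerized cells.

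*Itga4*, the α chain of the VCAM-1 and MAdCAM-1 receptors, was read at 10291, 9356 and 9823 normalized counts in N0 and 16402, 15440 and 20152 in T0. After Ag it fell to 2680, 1574 and 2069 in NAg and 2520, 3480 and 3672 in TAg. After PI it was at 5937, 5756 and 6327 in NPI and 10083, 9731 and 9560 in TPI. The log2 change from N0 to NPI was -0.71 (SE 0.16, adjusted p = 0.00151). With a platelet score in the model the estimate was similar (-0.721) but its error was wider (SE 0.303), and it did not pass (adjusted p = 0.0751). Tolerized cells were above naive cells without overlap at rest and after PI. The difference was 0.82 (SE 0.16, adjusted p = 0.00269) at rest, 0.61 (SE 0.17, adjusted p = 0.00872) after Ag and 0.70 (SE 0.16, adjusted p = 0.00307) after PI. That after Ag did not pass in a fit of the TAg and NAg libraries alone (0.63, adjusted p = 0.11). The fall after Ag was 4.66-fold in naive and 5.38-fold in tolerized cells, and the responses did not differ beyond their error (-0.21, 95% interval -0.70 to 0.29). The gene lies on chromosome 2 (chr2:79095583-79173280, plus strand) and shares 1124 bp of exon with *Cerkl* on the opposite strand, which had 3.52 to 81.3 normalized counts.

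*Itgb7*, the β chain of the gut-homing receptor α4β7 and of αEβ7, lies on chromosome 15 (chr15:102046426-102062366, minus strand). It had 7169, 6083 and 6467 normalized counts in N0 and 6591, 6621 and 7527 in T0. After Ag, 929, 639 and 720 remained in NAg and 1390, 1362 and 1414 in TAg. PI left 3258, 2727 and 3286 in NPI and 2543, 2912 and 3225 in TPI. Resting levels overlapped between cell states, as did those after PI, whereas each TAg library was above each NAg library. The difference was 0.87 (SE 0.12, adjusted p = 1.02e-05) after Ag, and 0.07 (95% interval -0.16 to 0.30) at rest. Ag lowered *Itgb7* 8.62-fold in naive and 4.98-fold in tolerized cells, and the difference in response was 0.79 (SE 0.16, adjusted p = 0.00138). After PI it fell by 1.09 in naive cells and fell by 1.26 in tolerized cells on the log2 scale.

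*Itgb3*, the β chain of the vitronectin receptor αvβ3 and of the platelet integrin αIIbβ3, was lower in tolerized cells at rest and after PI. Normalized counts were 2568, 3668 and 3407 in N0 and 1843, 1841 and 1929 in T0. They were 513, 367 and 221 in NAg and 416, 361 and 401 in TAg. After PI they were 1256, 925 and 1195 in NPI and 381, 464 and 507 in TPI. The groups did not overlap at rest or after PI, and NAg spanned TAg. The difference was -0.78 (SE 0.21, adjusted p = 0.0211) at rest and -1.32 (SE 0.23, adjusted p = 0.000425) after PI, which is 2.5-fold lower. The call at rest was lost when N0 replicate 2 or 3 or T0 replicate 1 or 2 was left out, with adjusted p-values of 0.0668 to 0.0877 there, and when sex was added to the model (-0.77, adjusted p = 0.118). Ag lowered *Itgb3* 8.79-fold in naive and 4.76-fold in tolerized cells, and PI 2.85-fold and 4.15-fold. The difference between the Ag responses was 0.88 (SE 0.33, adjusted p = 0.0739), and passed the test without N0 replicate 1 (1.04) or NAg replicate 1 (1.203) with DESeq2 (0.84, adjusted p = 0.0465) and with a score of platelet markers in the model (1.017, adjusted p = 0.00396). The gene lies on chromosome 11 (chr11:104469370-104531790, plus strand).

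Since platelets carry *Itgb3*, 10 platelet and megakaryocyte genes were summed beside it. Their sum was 210.0, 603 and 849 in N0, 410 to 421 in T0, 276 to 994 in NAg, 281 to 508 in TAg, 78.9 to 91.5 in NPI and 109.6 to 119.6 in TPI. In NAg replicates 1 to 3 the sums were 994, 744 and 276 and *Itgb3* was at 513, 367 and 221. The replicates had the same order for both in NAg and TAg, and opposite orders in T0 and TPI. In N0 and NPI the orders agreed in part, and N0 replicate 1 was lowest for both. All 10 of the platelet genes were lower in NPI than N0 and 7 were lower in TPI than T0 by the test. In NPI the chemokine gene *Ppbp* had 0, 0 and 1 counts and *Gp9* had none, and *Itga2b* gave 68.8 to 85.3 of the summed normalized counts, while *Itgb3* was at 925 to 1256 normalized counts. With a platelet score in the model, the fall of *Itgb3* from N0 to NPI was -0.59 (SE 0.27, adjusted p = 0.0935) in place of -1.51. The difference between T0 and N0 was -0.68 (adjusted p = 0.00397) in that fit. The difference between the PI responses was -0.762 (adjusted p = 0.0209), in place of -0.54 (adjusted p = 0.268) without the score. The part of platelets in the differences of *Itgb3* was not tested, beyond fits with this score.

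**Figure D3:**
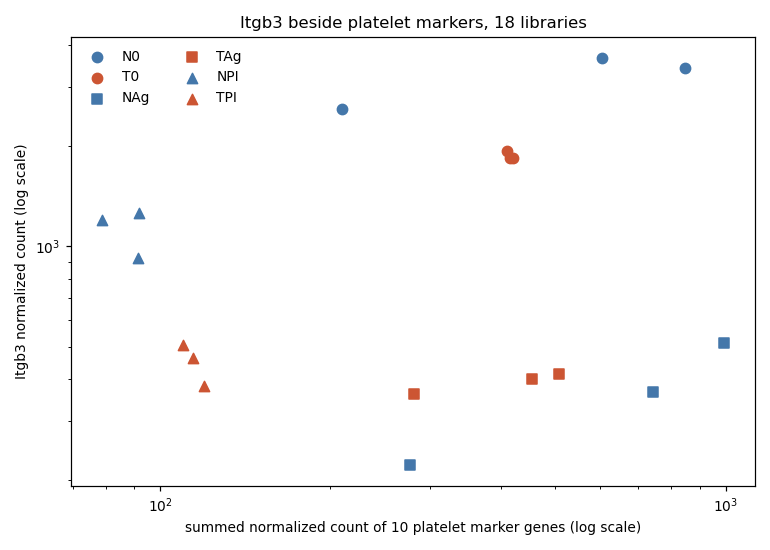
Normalized count of *Itgb3* (vertical log axis) against the summed normalized count of 10 platelet marker genes (horizontal log axis), 1 point per library. The 3 NPI libraries lie at 925 to 1256 for *Itgb3* with platelet sums of 78.9 to 91.5, and the NAg libraries lie at 221 to 513 with sums of 276 to 994. Within NAg the library with the highest sum had the highest *Itgb3*, and within TPI it had the lowest.

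Of the 2 chains of LFA-1, *Itgb2*, which also pairs with the myeloid α chains αM and αX, was between 3555 and 6028 normalized counts in every library, and its highest group mean was 1.34 times its lowest. It fell by 0.42 (SE 0.09, adjusted p = 0.000171) from N0 to NAg, by 0.28 (SE 0.09, adjusted p = 0.00826) from T0 to TAg and by 0.35 (SE 0.09, adjusted p = 0.00115) from N0 to NPI. From T0 to TPI it fell by 0.21 (SE 0.09, adjusted p = 0.0342), a call lost without T0 replicate 3 or TPI replicate 1 or 2 and with DESeq2 (adjusted p = 0.0764) or sex in the model (adjusted p = 0.064). *Itgb2* did not pass between tolerized and naive cells under any condition, with 95% intervals of -0.27 to 0.09 at rest, -0.13 to 0.24 after Ag and -0.13 to 0.24 after PI. *Itgal* had 9985, 8591 and 8426 normalized counts in N0 and 8888, 9012 and 10147 in T0, which overlapped. After Ag it had 4476, 4470 and 5149 in NAg and 6675, 7641 and 7239 in TAg, without overlap. After Ag it fell by 0.94 in naive cells and fell by 0.38 in tolerized cells, and the difference in response was 0.56 (SE 0.12, adjusted p = 0.00136). *Itgb2* lies on chromosome 10 (chr10:76992997-77028453) and *Itgal* on chromosome 7 (chr7:134439774-134478651), both on the plus strand.

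*Itga6*, the laminin receptor chain, fell after Ag and did not pass between cell states at rest or after PI. It had 3182, 3217 and 3327 normalized counts in N0, 2895, 3247 and 4033 in T0, 3337, 3256 and 3375 in NPI and 3349, 3483 and 3008 in TPI, and these 4 groups overlapped along the order of their means. After Ag, 520, 520 and 431 were left in NAg and 789, 721 and 714 in TAg. The fall after Ag was 6.61-fold in naive and 4.57-fold in tolerized cells, with a difference in response of 0.53 (SE 0.14, adjusted p = 0.00625). TAg was 0.60 (SE 0.10, adjusted p = 5.38e-05) above NAg on the log2 scale. After PI the estimates were 0.04 (95% interval -0.15 to 0.23) in naive and -0.05 (-0.24 to 0.14) in tolerized cells, and neither passed. With sex in the model the estimate in naive cells was 0.287 (SE 0.115) and passed (adjusted p = 0.042), where all N0 libraries were female and all NPI libraries male. *Itga6* lies on chromosome 2 (chr2:71583673-71696473, plus strand).

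*Selplg*, which encodes the selectin ligand PSGL-1 and lies on chromosome 5 (chr5:114267807-114280510, minus strand), was the only member lower in TAg than NAg. Normalized counts were 2457, 2455 and 2381 in N0 and 2656, 2697 and 3025 in T0. They were 906, 711 and 784 in NAg and 561, 546 and 648 in TAg. After PI they were 1175, 1266 and 1261 in NPI and 1453, 1482 and 1656 in TPI. All 6 groups stood apart, in the order TAg, NAg, NPI, TPI, N0 and T0, and tolerized cells were above naive ones at rest and after PI and below them after Ag. The difference after Ag was -0.45 (SE 0.09, adjusted p = 0.000273) and that after PI 0.31 (SE 0.08, adjusted p = 0.00453). That at rest was 0.20 (SE 0.08) and did not pass (adjusted p = 0.0892), although it did in a fit of the T0 and N0 libraries alone (0.27, adjusted p = 0.00903). After Ag *Selplg* fell by 1.60 in naive cells and fell by 2.25 in tolerized cells, with a difference in response of -0.65 (SE 0.12, adjusted p = 0.000334).

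**Figure D4:**
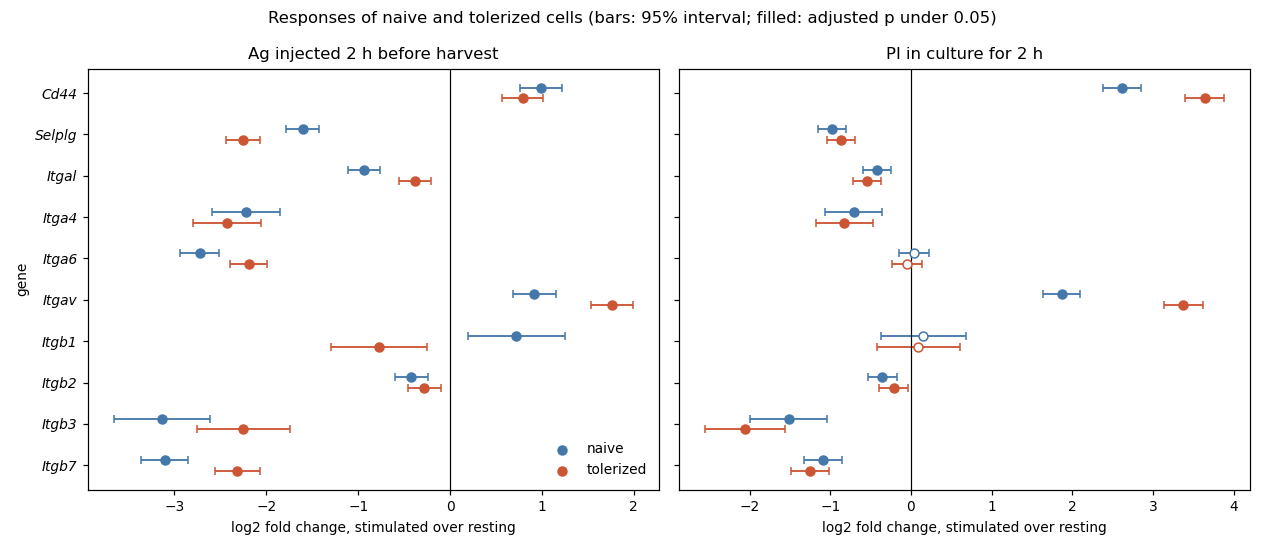
Log2 fold change of stimulated over resting cells (horizontal axes) for the 10 genes (vertical axis) after Ag and after PI, naive and tolerized, with 95% intervals from the edgeR fit. After PI the intervals of *Cd44* (2.61 and 3.64) and *Itgav* (1.86 and 3.38) lie apart, and after Ag *Itgb1* lies on opposite sides of 0 at 0.72 and -0.77.

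The responses of naive and tolerized cells were compared by interaction contrasts. For Ag, 4 members were higher (*Itgav*, *Itgb7*, *Itgal* and *Itga6*) and 2 lower (*Itgb1* and *Selplg*), where 14.6% of all tested genes were higher and 7.09% lower. For PI, *Itgav* and *Cd44* were higher and no member was lower, where 12.7% of genes were higher and 7.52% lower. For the 3 members *Itgb7*, *Itgal* and *Itga6* a positive difference was a smaller fall in tolerized cells, and for *Itgav* and *Cd44* it was a larger rise.

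Divided by the length of their exons in kb, the members can be compared with each other. In N0 the α chains were led by *Itgal* at 1411 ± 134 (SD, n = 3) normalized counts per kb, followed by *Itga4* at 703 ± 33.5, *Itga6* at 359 ± 8.39 and *Itgav* at 104.5 ± 1.82. The β chains were led by *Itgb7* at 2396 ± 201 and *Itgb2* at 1709 ± 231, ahead of *Itgb3* at 550 ± 98.4 and *Itgb1* at 466 ± 139, the last 2 overlapping in counts per kb. In TPI *Itgav* was the highest α chain at 1563 ± 136 per kb, and *Itgb1* (1417 ± 233) and *Itgb2* (1387 ± 98.0) were the highest β chains. Among 17169 tested genes with an exon length, *Itgav* moved from percentile 63.5 of levels per kb in N0 to 96.3 in TPI, and *Cd44* from 74.7 to 98.1, whereas *Itga6* moved from 89.3 in N0 to 54.1 in NAg.

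As a share of the 4 α chain mRNAs per kb, *Itgav* was 4.06% ± 0.24 (SD, n = 3) in N0 and 4.68% ± 0.29 in T0. It was 17.4% ± 3.44 in NAg and 26.3% ± 2.20 in TAg, and 17.1% ± 2.46 in NPI and 43.0% ± 2.08 in TPI. The naive and tolerized shares did not overlap under any of the 3 conditions. As a share of the 4 β chain mRNAs, *Itgb1* was 9.0% ± 1.98 in N0 and 22.6% ± 4.86 in T0, and 16.4% ± 2.31 in NPI and 36.0% ± 5.51 in TPI, again without overlap. Its share in NAg, at 32.3% ± 2.30, was above N0 in every library. That in TAg, at 29.0% ± 2.07, overlapped its own resting group (26.6% to 30.3% in TAg and 19.4% to 28.2% in T0). *Itgb7* was 46.8% ± 0.60 in N0 and 11.6% ± 1.45 in NAg, and 43.8% ± 2.36 in T0 and 18.9% ± 0.56 in TAg. Among the β partners of *Itga4*, the ratio of *Itgb1* to *Itgb7* per kb was 0.15 to 0.23 in N0, 0.43 to 0.69 in T0, 2.32 to 3.37 in NAg, 1.36 to 1.63 in TAg, 0.39 to 0.56 in NPI and 1.11 to 1.82 in TPI. These shares weigh mRNA and not the protein chains, and with exon lengths replaced by the longest coding transcript the share of *Itgav* in TPI was 44.4% and that of *Itgb1* 36.9%. The level of *Itga6* depended on this choice, at 752 in place of 359 per kb in N0, and its share of the α chains in TAg was 6.50% in place of 4.23%. *Itgav* in N0 was at 159 in place of 104.5 per kb, and the order of the 4 α chains in N0 stayed as given.

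**Figure D5:**
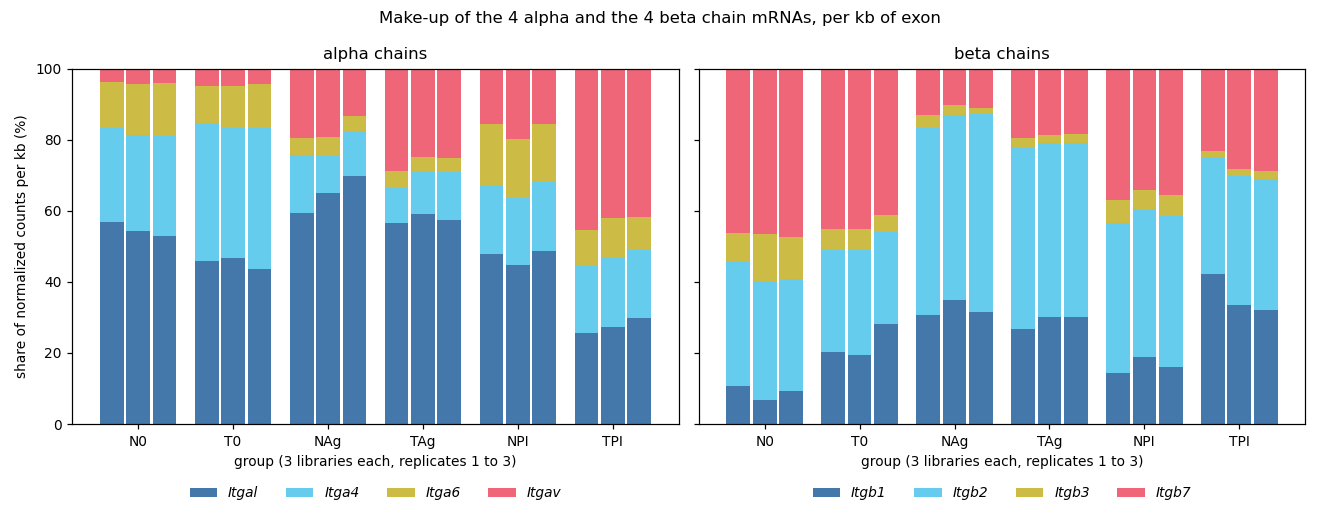
Share of each gene (vertical axis, percent, from 0 to 100) in the summed normalized counts per kb of 4 α chains and of 4 β chains, 1 bar per library, grouped as on the horizontal axis. *Itgav* takes 4.06% of the α chains in N0 and 43.0% in TPI, and *Itgb7* takes 46.8% of the β chains in N0 and 11.6% in NAg.

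For the members that differed at least 2-fold between tolerized and naive cells in some condition, the genes with the most similar profile were sought among 11554 others by Pearson's r over log2 normalized counts of the 18 libraries, which share 6 groups. *Cd44* was most like *Tcfe3* (r = 0.996), *Adora2a* (0.988) and *Mapre2* (0.987), and *Itgav* most like *Trps1* (0.993), *Lmnb1* (0.983) and *Tmem65* (0.981). *Itgb1* was most like *Itga9* (0.932), which encodes an α chain that pairs with β1, *Il10ra* (0.905) and *Entpd1* (0.888). *Itgb3* was most like *Bcl11b* (0.982), *Acadm* (0.980) and *Nlk* (0.979). Among the members themselves, r was highest for *Itga4* with *Itgb7* (0.939) and for *Cd44* with *Itgav* (0.929), and it was lowest for *Itgb3* with *Itgav* (-0.629).

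Other genes of the adhesion machinery were counted in 5 lists. The counts are to be read against the shares of all tested genes, which were 8.42% higher and 12% lower in T0 over N0, 20.9% and 18.5% in TAg over NAg, 32.1% and 33.4% in NAg over N0, and 28.6% and 32.7% in NPI over N0. Of 16 further integrin subunits that were tested, 6 were higher and none lower in T0 than N0, with a median log2 fold change of 0.82 beside -0.08 over all genes. The highest folds among genes with over 50 normalized counts were those of the E-cadherin receptor chain *Itgae* (2.81, SE 0.44, adjusted p = 0.000734) and of *Itga9* (2.35, SE 0.58, adjusted p = 0.0123). *Itgae* had 145, 94.0 and 126 normalized counts in N0 and 1199, 1004 and 357 in T0. *Itga9* had 53.5, 36.5 and 25.8 in N0 and 118, 102 and 376 in T0, so that T0 replicate 3 was highest for *Itga9*, as for *Itgb1*, and lowest for *Itgae*. In TAg over NAg 4 subunits were higher and 3 lower. *Itgb8*, the β chain that binds latent TGF-β with αv, had 503, 287 and 184 normalized counts in NAg and 2291, 2305 and 1991 in TAg, a log2 difference of 2.76 (SE 0.33, adjusted p = 2.61e-05). *Itgad* was lower in TAg (-2.39, adjusted p = 0.0337), but its counts of 139, 12.9 and 12.1 in NAg came mainly from replicate 1, the library with the most macrophage markers (sum of 2197, beside 578 and 671 in the others). In NAg over N0, 3 subunits were higher and 3 lower, and in NPI over N0, 4 were higher and 3 lower, among them the platelet chain *Itga2b* (-1.55, adjusted p = 0.00118).

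Of 27 cytoplasmic activators and linkers, 19 were lower and 3 higher in NAg than N0, with a median of -0.95 beside 0.00. *Rasgrp2*, the exchange factor for the small GTPase Rap1 that switches integrins on, fell by 4.45 (SE 0.18, adjusted p = 1.87e-12), from 6911 to 8447 normalized counts in N0 to 288 to 408 in NAg. *Fyb*, whose product ADAP links the TCR to integrins, fell by 3.28 (SE 0.10). In T0 over N0, 3 activators were higher and 3 lower, with *Rasgrp1* at -0.57 (SE 0.08, adjusted p = 3.29e-05). In TAg over NAg, 16 were higher and 4 lower, with a median of 0.44 beside 0.01. In NPI over N0, 11 were higher and 12 lower, with the parvin gene *Parvb* at -2.59 (SE 0.54). *Parvb* had 33.7, 80.4 and 112 normalized counts in N0, where the 10 platelet genes summed to 210.0, 603 and 849. It had at most 14.4 in NPI, where these sums were at most 91.5. All 10 platelet genes were also lower in NPI than N0, and the part of platelets in the fall of *Parvb* was not tested.

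Of 14 ligands and counter-receptors, 7 were higher and 3 lower in NAg than N0, with a median of 1.73 beside 0.00 and shares over all genes of 32.1% and 33.4%. *Icam1*, the ligand of LFA-1, rose by 4.16 (SE 0.19, adjusted p = 1.8e-11) from 269 to 393 normalized counts in N0 to 5736 to 6381 in NAg, *Icam5* rose by 4.42 and *Tgfb1* by 2.48. In T0 over N0, 2 ligand genes were higher and 1 lower. The fibronectin gene *Fn1* was higher by 2.85 (SE 0.23, adjusted p = 5.94e-07), from 45.9 to 93.1 normalized counts in N0 to 435 to 594 in T0, and by 1.98 (SE 0.25) in TAg over NAg. In the latter comparison 4 were higher and 4 lower, with the osteopontin gene *Spp1* at 2.45 (adjusted p = 0.0119, 4.40 to 51.5 against 45.1 to 218) and *Vcam1* at -3.29 (adjusted p = 0.00324), which had 675 normalized counts in NAg replicate 1 and 152 and 72.6 in the other NAg libraries. PI raised 7 and lowered 4 in naive cells, with *Spp1* at 5.64, *Icam1* at 3.01, *Lgals3* at 2.97 and *Vcam1* at -2.15. *Vcam1* is also among the 11 macrophage markers, of which 8 were lower in TAg than NAg and 7 in NPI than N0. Their sum was highest in NAg replicate 1 (2197), and the part of macrophages in the *Vcam1* differences was not tested.

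Of the 14 enzymes that build selectin ligands on PSGL-1, 4 were higher and 1 (*St3gal6*, -0.42, SE 0.11) lower in T0 than N0. In TAg over NAg 4 were higher and 3 lower. The sialyltransferase gene *St3gal1* had 4515, 4896 and 5236 normalized counts in NAg and 1645, 1685 and 1722 in TAg, a log2 difference of -1.54 (SE 0.09, adjusted p = 3.16e-12). In NAg over N0, 5 were higher and 8 lower (median -0.39 beside 0.00, with 32.1% and 33.4% over all genes). In NPI over N0, 4 were higher and 4 lower (median -0.12 beside -0.06), which is close to the 28.6% and 32.7% over all genes. Of 11 tested partners of CD44, hyaluronan synthases and actin linkers, none was higher and *Ezr* alone was lower (-0.36, SE 0.07) in T0 than N0, whereas 7 were higher and 2 lower in NPI than N0. In NAg over N0 5 were higher and 2 lower (median 0.265 beside 0.00, with 32.1% and 33.4% over all genes), and in TAg over NAg 1 was higher and 2 lower (median 0.01 beside 0.01, with 20.9% and 18.5%). For *Fn1*, *St3gal6*, *Ezr*, *Itgad*, *Icam1*, *Icam5*, *Rasgrp2* and *Fyb* the annotation holds another gene over part of their exons, so that reads there are uncertain.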

How the data were processed

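RNA-seq counts of 18 libraries of enriched CD4+ T cells were analyzed. The authors aligned paired-end reads to the mouse genome (mm9, NCBIM37) with TopHat 2.1.1 and counted them on Ensembl gene models with HTSeq-count 0.9.1, and the deposited values are raw counts per gene, without normalization or pooling. How strand and overlapping genes were handled in counting is not given in the sources used here. Symbols, positions and exon lengths came from an NCBIM37 annotation for 37205 of 37991 genes, and from a table of names for the others.

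Counts were analyzed in R 4.3.3 with edgeR 4.0.16 and limma 3.58.1. A gene was tested if its normalized count averaged 3 or more in any group, which left 17240 genes. After TMM scaling, the 18 libraries entered 1 negative binomial model of 6 group means, and each contrast was put to the robust quasi-likelihood F test, adjusted by the Benjamini-Hochberg method over the tested genes. A gene passed at an adjusted p under 0.05. Normalized counts are counts scaled to a common library size by the TMM factors, and intervals are 95% intervals of the fitted log2 fold change. The median log2 change of tested genes was -0.054 in NPI over N0 and -0.097 in TPI over T0 with TMM. With scaling to total counts it was -0.593 and -0.834. After Ag it was -0.003 in NAg over N0 and -0.061 in TAg over T0 with TMM, and -0.376 and -0.37 with total counts. Estimates near 0 after PI, as for *Itga6* and *Itgb1*, thus rest on the TMM scaling. So does the size of small changes after Ag, as for *Itgb2* and *Itgb1*. Exon length is the union of annotated exons. Replicates of a group differed by more than counting noise, with a chi-square per gene of 3.04 to 13.1, so that no library was counted as a duplicate.

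The genes, the lists and the rule for named genes were chosen with earlier results of these data known. All 10 members are named. From the 5 lists of adhesion genes, the 3 largest rises and falls among those that passed with a mean above 50 normalized counts are named in T0 over N0, TAg over NAg, NAg over N0 and NPI over N0, except for 1 gene that is not reported here, and similar profiles were sought for members that passed at 2-fold or more between tolerized and naive cells. Alternatives were DESeq2 1.42.0, both tests together as in the study, DESeq2's size factors in edgeR, no filter on low counts, only the groups compared, a replicate block, scores of myeloid and erythroid or of platelet markers, the sex of the mice read from the counts, and each library left out in turn. The scripts were tested on simulated data. Motifs were searched in RefSeq promoter sequences placed on NCBIM37.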

Additional observations from a re-analysis of the deposited data

Results flagged for a closer look

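Responses that differed between naive and tolerized cells by the interaction contrast of the edgeR fit call for a closer look, and 8 of the 20 tested here did (10 genes, Ag and PI). For Ag, 4 members were higher and 2 lower, where 14.6% of all tested genes were higher and 7.09% lower. For PI, 2 members were higher and 0 lower, where 12.7% of all tested genes were higher and 7.52% lower. The count for PI is thus near the share over all genes. After Ag the response of *Itgb1* was -1.50 on the log2 scale in tolerized relative to naive cells, and it is the one with opposite directions, since all 3 NAg libraries were above all N0 libraries and all 3 TAg libraries below all T0 libraries. Its standard error of 0.34 is the widest of the 8. The response of *Selplg* differed by -0.65, a larger fall in tolerized cells. Those of *Itgb7* (0.79), *Itgal* (0.56) and *Itga6* (0.53) differed by a smaller fall, and that of *Itgav* (0.84) by a larger rise. After PI the responses of *Itgav* (1.51) and *Cd44* (1.03) differed by a larger rise in tolerized cells. With myeloid and erythroid marker scores in the model the difference of *Itgb1* was -1.47 with an adjusted p of 0.0519, and the other 7 passed. Groups of 3 are too small to test single libraries as outliers.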

How the results depend on the processing

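Each of 90 log2 fold changes (10 genes, 9 comparisons) was recomputed under 9 alternatives and with every library left out in turn. Under the alternatives 752 values kept their direction and their side of the threshold, 28 lost the call, 6 gained one and 24 changed sign, and with left-out libraries the numbers were 616, 15, 2 and 27. Of the 51 changes of sign, 1 was in a value that had passed the test. The number of members past the test moved by over 1.5 times only with myeloid and erythroid marker scores, to 0 in T0:N0 (5 without the scores), 5 in NPI:N0 (8) and 3 in TPI:T0 (8). Left-out libraries gave 4 to 5 in T0:N0, 6 to 7 in TAg:NAg, 6 in TPI:NPI, 9 to 10 in NAg:N0 and in TAg:T0, 8 in NPI:N0 and 7 to 8 in TPI:T0. The cause of these changes was not tested, and no share of all tested genes under these fits is set beside the counts.

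The sign changed with these marker scores to -0.005 for *Cd44* in T0:N0, the value that had passed, and, among values that had not, to -0.195 for *Selplg*, -0.034 for *Itga6* and -0.419 for *Itgb7* in T0:N0, -0.006 for *Itgb1*, -0.017 for *Itgb2* and -0.165 for *Itgb3* in TAg:NAg, -0.059 for *Itgb2* in TPI:NPI, 0.198 for *Itga6* in TPI:T0, 0.108 for *Cd44* and 0.161 for *Itga4* in the Ag interaction, and 0.133 for *Itga4*, 0.008 for *Itga6* and 0.015 for *Itgb7* in the PI interaction. With the platelet score it changed to 0.083 for *Itga6* in TPI:T0 and to -0.069, -0.2, -0.184 and 0.016 for *Itgb1* in TAg:NAg, NPI:N0, TPI:T0 and the PI interaction. It changed to -0.02 for *Itgb1* in TAg:NAg with DESeq2, with both tests and with DESeq2's size factors, to 0.003 for *Itga6* in TPI:NPI with only the groups compared, and to 0.045 for *Itga6* in TPI:T0 with sex in the model. Values that crossed 0 with a library left out, none of which had passed, ranged from -0.016 to 0.131 for *Itgal* in T0:N0, from -0.377 to 0.003 and from -0.172 to 0.027 for *Itga4* in the Ag and PI interactions, and for *Itga6* from -0.085 to 0.165 in T0:N0, -0.064 to 0.04 in TPI:NPI, -0.023 to 0.05 in NPI:N0, -0.184 to 0.066 in TPI:T0 and -0.174 to 0.076 in the PI interaction. For *Itgb1* they were -0.044 to 0.093 in TAg:NAg, -0.096 to 0.34 in NPI:N0, -0.087 to 0.399 in TPI:T0 and -0.278 to 0.293 in the PI interaction, for *Itgb2* -0.155 to 0.026 in T0:N0, -0.006 to 0.107 in TAg:NAg and -0.011 to 0.117 in TPI:NPI, for *Itgb3* -0.163 to 0.431 in TAg:NAg, and for *Itgb7* 0.0 to 0.135 in T0:N0 and -0.181 to 0.011 in TPI:NPI.

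The replicate numbers were not found to pair the libraries. Deviations from the group means correlated at -0.195 to 0.11 between libraries of the same number (45 pairs) and at -0.176 to 0.194 between different numbers (90 pairs), and 3 of 18 libraries correlated best with their own number. With the replicate number as a block, 5 members passed in T0:N0, 7 in TAg:NAg and 6 in TPI:NPI, as without it, and no call of a member changed in any comparison.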
